A study of Mus musculus with 33 samples.

Results

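The genes of bone morphogenetic protein (BMP) and transforming growth factor beta (TGF-beta) signalling were followed in RNA sequencing of the developing mouse skull roof. There were 43 such genes, listed by name and role with earlier results of these data known: 11 BMP and growth differentiation factor (GDF) ligands, 5 TGF-beta and activin ligand genes, 9 receptors, 10 antagonists and binding proteins, and 8 Smads. All 43 were found among the 55401 genes of the count table, and all 43 passed the filter on low counts that left 20073 genes for testing. The libraries came from polyA RNA of mouse embryos, with a tissue label of frontal bone at every age. There were 3 libraries, named a, b and c, at each of 11 stages: every 0.5 days from embryonic day 8.5 (E8.5) to E12.5, then E13.5 and E14.5. The labels name no strain, treatment or mutation, and leave unsaid if a stage's libraries are of separate embryos or of pools, so a p-value here covers library-to-library spread and no more.

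BMP and TGF-beta ligands are secreted dimers that bring together type II and type I receptor kinases on the cell surface. The type I receptor then phosphorylates receptor Smads, which join the common partner Smad4 and act on genes in the nucleus, while inhibitory Smads and secreted binding proteins hold the signal back. In the skull roof, BMP ligands drive mesenchyme toward osteoblasts, Noggin holds BMP signalling back at the sutures, and TGF-beta signalling through Tgfbr2 in neural crest cells is needed for the frontal bone to form.

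Column totals ran from 14516518 to 19964404 counts. Most osteoblast markers were near 0 or low at E8.5, against the label of bone. Runx2, the master regulator of osteoblasts, had 41.8, 47.8 and 45.6 CPM at E14.5, against 0.491, 0.710 and 0.526 CPM at E8.5, and Ibsp, a late bone matrix gene, had 449, 473 and 471 CPM at E14.5, against 0.0702, 0.355 and 0.409 CPM at E8.5. Alpl, alkaline phosphatase, was the 1 of 6 that was not called, with 44.3, 41.7 and 45.7 CPM at E14.5, against 43.7, 41.6 and 37.2 CPM at E8.5. Markers of other tissues changed as well, and the summed level of 6 markers per tissue is given here as the range over 3 libraries. At E14.5 against E8.5, mesenchyme markers summed to 5561 to 5639 CPM, against 635 to 651 CPM (6 of 6 higher), and osteoblast markers to 2419 to 2610 CPM, against 61.3 to 68.1 CPM (5 of 6 higher). Surface epithelium markers summed to 1094 to 1254 CPM at E14.5, against 101 to 114 CPM at E8.5 (6 of 6 higher), and skeletal muscle markers to 325 to 366 CPM, against 7.10 to 8.92 CPM (6 of 6 higher). Macrophage markers summed to 132 to 152 CPM at E14.5, against 0.492 to 1.07 CPM at E8.5 (6 of 6 higher), with C1qa and Tyrobp at 0 at E8.5. Neural tube and roof plate markers summed to 35.2 to 39.5 CPM at E14.5, against 351 to 357 CPM at E8.5 (6 of 6 lower), with Msx3 at 0 at E14.5. Neuron markers summed to 538 to 557 CPM at E14.5, against 148 to 152 CPM at E8.5 (6 of 6 higher), and were higher between, at 1184 to 1217 CPM at E10.5, 2536 to 2574 CPM at E11 and 2656 to 2722 CPM at E11.5. Cartilage markers summed to 535 to 568 CPM at E14.5, against 501 to 527 CPM at E8.5 (4 of 6 higher, 2 lower). Endothelium markers summed to 487 to 518 CPM at E14.5, against 317 to 327 CPM at E8.5 (5 higher, 1 lower). Erythroid markers summed to 2010 to 2471 CPM at E14.5, against 189 to 211 CPM at E8.5 (4 higher, 2 lower). Levels in CPM are counts scaled to a common library size. The part of these tissues in the results below was not tested, and in bulk libraries fewer cells of a type and less RNA per cell cannot be told apart. Libraries labelled E12 and E13.5 were the least alike among themselves, with lowest correlations of 0.965 and 0.975. Bmp4, Bmp5, Bmp6, Gdf5, Tgfb2, Tgfb3, Bmpr1a, Acvr2a, Fst, Fstl3 and Chrd each overlap a gene on the other strand, and Smad5 and Tgfbr3 one on their own, so reads shared with those genes cannot be told apart where counting ignored strand. On the leading principal component the libraries labelled E11.5 lay nearer to E13.5 than those labelled E12 or E12.5 did, so contrasts with E12.5 were also computed with the E11.5 libraries in its place. The E10 and E10.5 libraries were out of label order there too, with means of -37.9 and -46.4, where later stages lie higher. No other stage was put in place of E10.5.

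Every one of the 43 genes changed over the 11 stages (edgeR quasi-likelihood F-test, Benjamini-Hochberg adjusted p at most 0.00119, for Smad7), where 95.3% of all tested genes did so. Of the 43 genes, 25 (58.1%) had their highest stage mean at E13.5 or E14.5, beside 28.1% of all tested genes. Of these 25, 9 were highest at E13.5 and 16 at E14.5. The lowest mean lay at E8.5 for 10 genes and at E12 for 9, and the shares of all tested genes lowest there were not computed. At E12 the erythroid markers summed to 1533 to 4667 CPM over the 3 libraries, and their part was not tested. The highest stage mean was more than 10 times the lowest for 8 genes, which were Inhbb, Inhba, Bmp3, Gdf5, Grem1, Gdf7, Gdf10 and Tgfb3. It was less than 2 times the lowest for 5 genes, which were Smad5, Smad7, Bmpr1a, Smad2 and Smad1. Among the 43 genes, those of wide range were ligands and 1 antagonist, and those of narrow range Smads and a type I receptor. The shares of all tested genes with such ranges were not computed.

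**Figure D1:**
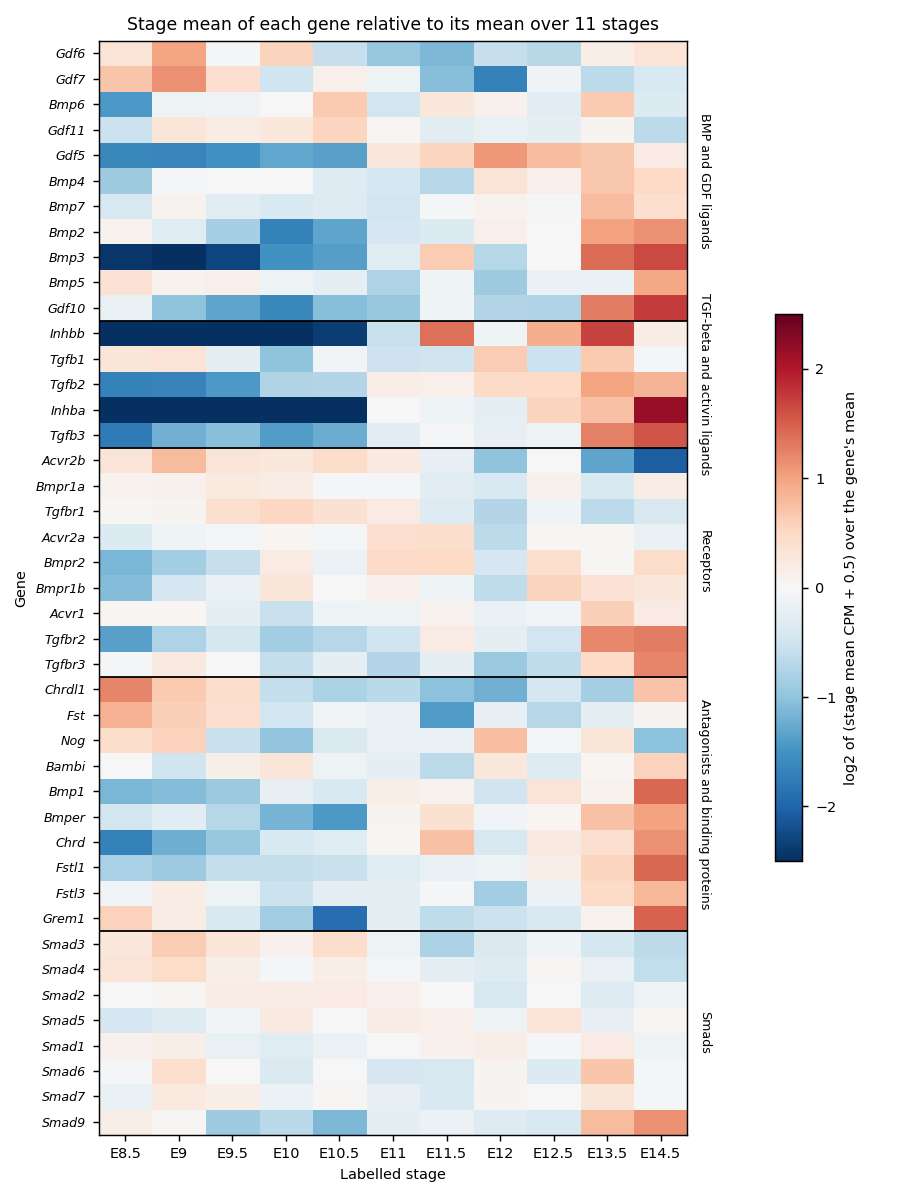
Stage mean of each of the 43 genes, as log2 of CPM plus 0.5 over the gene's own mean across 11 stages, with stages from left to right and genes grouped by role and ordered by the stage of their highest mean. Red is above the gene's mean and blue below it. The blocks of ligands and antagonists turn red in the E13.5 and E14.5 columns, where 25 of the 43 genes peak, while the Smads stay pale apart from Smad9, which is highest at E14.5.

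At E14.5 against E8.5, 25 of the 43 genes were higher and 10 were lower, which is 58.1% and 23.3% of them, where 41.1% and 33.5% of all tested genes were called higher and lower. The median log2 fold change was 0.83 for the 43 genes and 0.16 for all genes. Of the calls over all genes, 55.0% were higher, and 71.3% were so with column totals alone in place of composition-corrected scaling, which moved the median of all genes up by 0.43 and left 6 of the 43 genes lower. By role, 8 of 11 BMP and GDF ligands were higher and 1 lower, and 4 of 5 TGF-beta and activin ligand genes were higher and 1 lower. Of the 9 receptors, 4 were higher and 2 lower, of the 10 antagonists and binding proteins 7 and 3, and of the 8 Smads 2 and 3. The antagonists and binding proteins were counted with Bmp1, which encodes a protease that cuts Chordin and is one of those 7.

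At E10.5 against E8.5, 16 genes were higher and 12 lower (37.2% and 27.9%), where 28.2% and 21.3% of all genes were called. At E12.5 against E10.5, 18 were higher and 10 lower (41.9% and 23.3%), where 18.8% and 17.2% of all genes were called. At E14.5 against E12.5, 24 were higher and 8 lower (55.8% and 18.6%), where 25.3% and 28.6% of all genes were called. The medians of the 43 genes in these steps were 0.14, 0.23 and 0.38, beside 0.09, 0.03 and -0.03 for all genes. Higher calls made up 57.0%, 52.2% and 46.9% of all calls in the 3 steps, and 72.5%, 68.4% and 58.4% with column totals alone, which left 5 of the 43 genes lower in the step to E12.5. Removing a trend with gene length left 40.4% in the step to E10.5. There were 7 genes that rose in all 3 steps: Bmp3, Bmp4, Tgfb2, Tgfb3, Bmp1, Fstl1 and Chrd. Another 4, Bmp2, Grem1, Bmper and Smad9, fell in the step to E10.5 and then rose in both later steps. Gdf7, Bmpr1a, Acvr2a and Smad7 passed in none of the 3 steps in the main fit. The shares of all tested genes with such courses were not computed. The rise of Fstl1 in the step to E10.5 was lost with a trend in gene length removed (0.05, edgeR adjusted p = 0.425). It was also lost with no filter on low counts (0.22, edgeR adjusted p = 0.102). In what follows, a value with ± beside an edgeR adjusted p is a log2 fold change, later over earlier stage, with its approximate standard error.

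**Figure D2:**
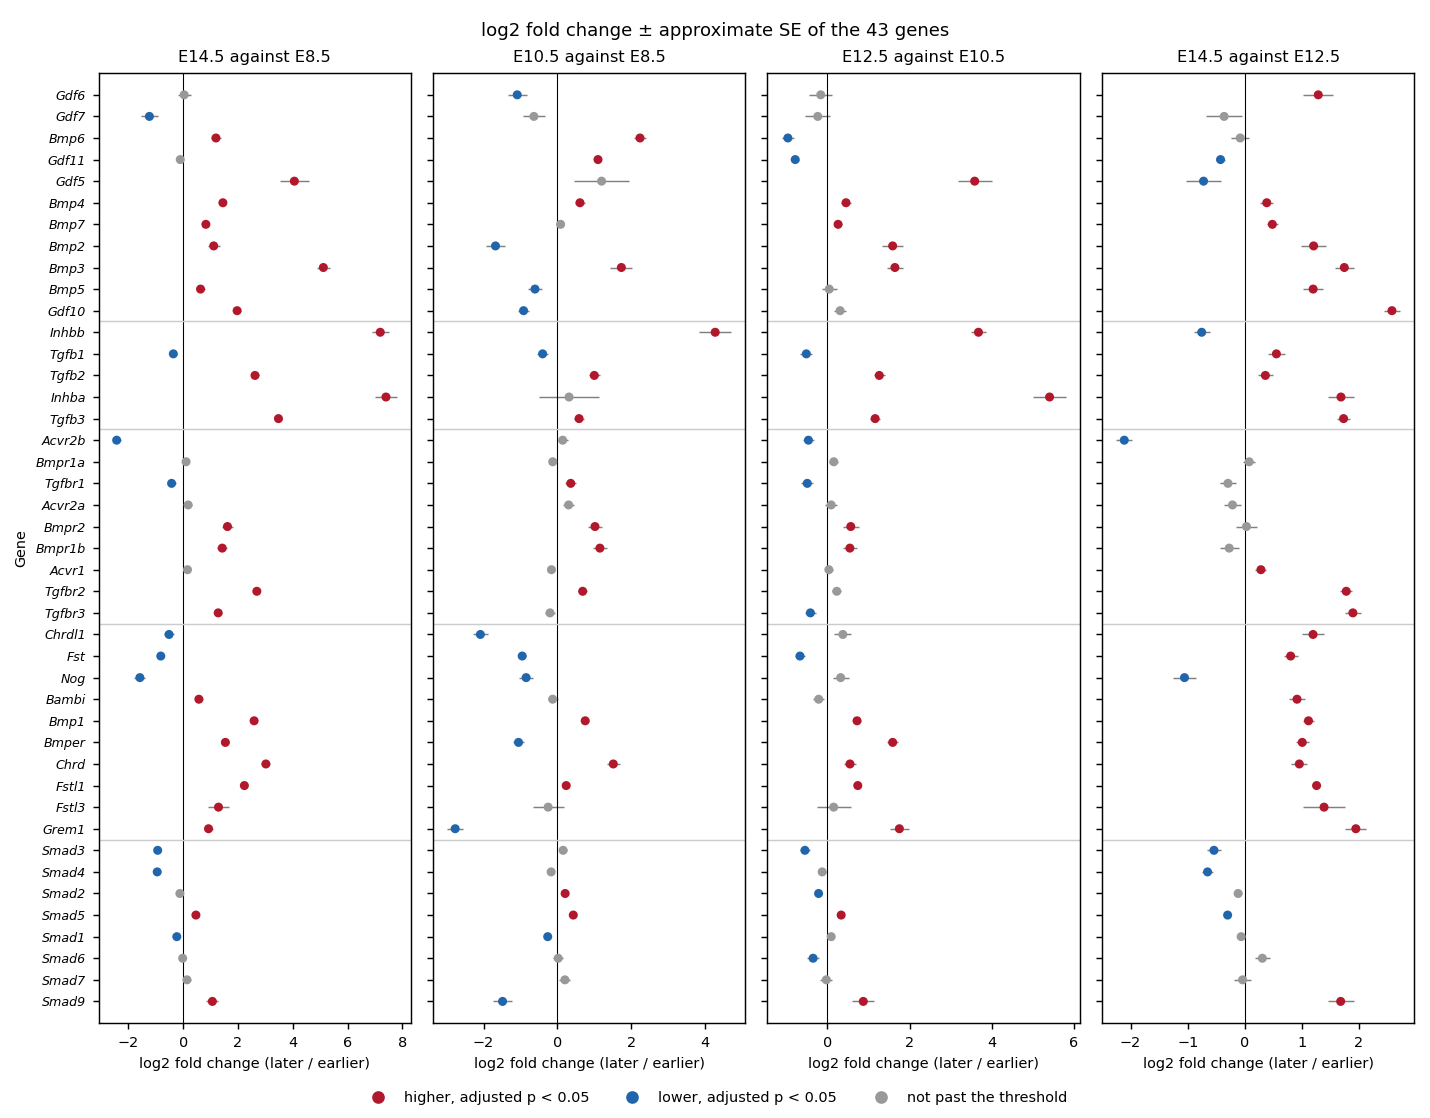
Log2 fold change of each of the 43 genes, later over earlier stage, in 4 contrasts, with bars for an approximate standard error from edgeR's fit on 3 libraries a stage. Red points are higher and blue points lower at an adjusted p below 0.05, and grey points did not pass. The E14.5 against E8.5 column has 25 red and 10 blue points, and Inhba and Inhbb lie farthest right; their E8.5 libraries hold few counts, so those 2 values depend on edgeR's prior count.

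The promoter windows of 4 genes are printed because these had the largest changes told below: Inhba and Inhbb the largest rises and Acvr2b the largest fall of the 43 genes at E14.5 against E8.5, and Grem1 the largest fall at E10.5 against E8.5. Each is 300 bases of RefSeq sequence on GRCm38.p6, from 250 bases before the annotated start to 50 bases after it, written 5′ to 3′ on the gene's strand. Capitals mark CAGAC or its reverse complement GTCTG, a Smad-binding core that Smad3 and Smad4 recognise, GGCGCC, a GC-rich Smad-binding core that reads the same on both strands, and TATAAA or its reverse complement TTTATA, the TATA box core. The Inhba window is chr13:16011601-16011900 on the plus strand, the Inhbb window chr1:119422199-119422498 on the minus strand, the Grem1 window chr2:113758599-113758898 on the minus strand and the Acvr2b window chr9:119401928-119402227 on the plus strand. In GENCODE M21, on the same build, the genes themselves span chr13:16011851-16031621 (Inhba), chr1:119415465-119422248 (Inhbb), chr2:113746164-113758646 (Grem1) and chr9:119402118-119434995 (Acvr2b).
Inhba: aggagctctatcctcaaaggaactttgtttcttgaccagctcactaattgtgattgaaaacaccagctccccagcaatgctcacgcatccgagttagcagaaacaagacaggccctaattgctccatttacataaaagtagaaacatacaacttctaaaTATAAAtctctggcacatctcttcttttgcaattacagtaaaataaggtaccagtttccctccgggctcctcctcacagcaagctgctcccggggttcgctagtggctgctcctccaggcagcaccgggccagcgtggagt
Inhbb: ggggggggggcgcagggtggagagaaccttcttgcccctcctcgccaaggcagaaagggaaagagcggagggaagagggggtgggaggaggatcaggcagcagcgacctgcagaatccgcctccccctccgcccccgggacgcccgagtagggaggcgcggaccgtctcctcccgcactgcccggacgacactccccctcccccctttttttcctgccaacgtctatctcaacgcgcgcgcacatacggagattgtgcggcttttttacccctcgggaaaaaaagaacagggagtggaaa
Grem1: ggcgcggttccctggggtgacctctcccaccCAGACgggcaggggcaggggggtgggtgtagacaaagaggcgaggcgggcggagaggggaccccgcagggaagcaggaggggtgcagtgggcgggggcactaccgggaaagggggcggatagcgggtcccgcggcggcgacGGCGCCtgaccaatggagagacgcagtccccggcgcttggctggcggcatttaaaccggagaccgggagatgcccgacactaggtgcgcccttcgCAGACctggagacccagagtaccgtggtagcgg
Acvr2b: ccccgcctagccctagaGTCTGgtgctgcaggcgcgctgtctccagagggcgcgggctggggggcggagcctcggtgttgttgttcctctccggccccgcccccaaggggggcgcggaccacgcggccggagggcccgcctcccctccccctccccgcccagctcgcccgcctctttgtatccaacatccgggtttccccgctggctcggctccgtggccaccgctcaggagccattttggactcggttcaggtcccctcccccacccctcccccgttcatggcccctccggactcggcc
The Inhba window held 1 TATAAA and neither Smad core. In the Inhbb window none of these letters occurred. The Grem1 window held 2 CAGAC and 1 GGCGCC, and the Acvr2b window 1 CAGAC, as GTCTG. No marked match overlapped another. Of the 43 genes, 28 had an entry, with 33 windows between them, of which 42.4% held CAGAC, 27.3% GGCGCC and 15.2% TATAAA. Over 32851 windows of 27025 genes the shares were 49.6%, 11.9% and 13.6%. The GC content differed too, at 66.5% in the windows of the 28 genes and 53.8% over all windows, and its part in the shares was not tested. A match of letters is a description and not a binding site.

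Among the BMP ligands, Bmp2, Bmp3, Bmp4 and Bmp7 all ended the series at higher levels, but by different courses. Bmp2, a strong inducer of bone formation, fell to its lowest level at E10 and E10.5 and then rose. Its level was 3.93, 5.82 and 5.55 CPM at E8.5, 2.13, 1.49 and 1.18 CPM at E10.5, 5.97, 3.12 and 5.40 CPM at E12.5, and 11.9, 9.21 and 12.1 CPM at E14.5. The E10.5 libraries lay below all others of these stages, and those of E14.5 above all others. For Bmp2 the log2 fold change was 1.11 ± 0.22 (edgeR adjusted p = 4.21e-05) at E14.5 against E8.5, -1.68 ± 0.26 (edgeR adjusted p = 3.53e-06) at E10.5 against E8.5, 1.59 ± 0.26 (edgeR adjusted p = 1.16e-05) at E12.5 against E10.5 and 1.20 ± 0.22 (edgeR adjusted p = 2.41e-05) at E14.5 against E12.5.

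Bmp4, the close relative of Bmp2 that acts early in the cranial mesenchyme, rose in each of the 3 steps, but not steadily over the stages between. Its mean per kilobase of exon length was 3.92 ± 0.23 CPM at E8.5 and 7.24 ± 0.39 at E9 (SD, n = 3). That mean was 7.49 ± 1.55 at E10, 5.99 ± 0.33 at E10.5 and 4.49 ± 0.40 at E11.5. Bmp4 had 9.41, 8.52 and 8.54 CPM at E8.5, 12.7, 14.2 and 13.6 CPM at E10.5, 19.4, 16.9 and 19.2 CPM at E12.5, and 23.6, 23.8 and 24.9 CPM at E14.5. Among these stages, no libraries of different stages overlapped. For Bmp4 the log2 fold change was 1.45 ± 0.12 (edgeR adjusted p = 9.93e-12) at E14.5 against E8.5, and 0.61 ± 0.13 (edgeR adjusted p = 0.000181), 0.46 ± 0.12 (edgeR adjusted p = 0.00293) and 0.38 ± 0.12 (edgeR adjusted p = 0.00583) in the 3 steps in order. The middle step depends on the stage label: the E11.5 libraries had 9.08, 10.4 and 10.8 CPM, below the E10.5 libraries, and in place of E12.5 they gave a log2 fold change of -0.41 against E10.5. The highest mean, 27.3 ± 4.59 CPM at E13.5, rested on library c at 32.6 CPM, since libraries a and b, at 24.6 and 24.7 CPM, lay within the range of the E14.5 libraries.

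Bmp7 had the highest level of the Bmp2, Bmp4, Bmp5, Bmp6 and Bmp7 group at every stage when counted per kilobase of exon length (CPM per kb), at 43.1% of their sum at E14.5 and 48.8% at E8.5. Its library values were 32.4, 37.2 and 34.9 CPM at E8.5, 38.2, 36.1 and 36.6 CPM at E10.5, 42.96, 38.3 and 51.8 CPM at E12.5, and 68.7, 60.6 and 56.3 CPM at E14.5. The E14.5 libraries stood above all the others, while those of E10.5 overlapped those of E8.5. Against E8.5 the log2 fold change was 0.83 ± 0.10 (edgeR adjusted p = 7.49e-09) at E14.5 and 0.09 ± 0.10 (edgeR adjusted p = 0.484) at E10.5. In the step from E12.5 to E14.5 it was 0.48 ± 0.10 (edgeR adjusted p = 8.4e-05). A smaller rise of 0.26 ± 0.10 (edgeR adjusted p = 0.0328) at E12.5 against E10.5 was lost without E12.5 library c (log2 fold change 0.14, edgeR adjusted p = 0.318) and without any one of the 3 E10.5 libraries (edgeR adjusted p = 0.0501, 0.1 and 0.0855 without a, b and c).

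Bmp3, which in mouse bone opposes the osteogenic BMPs, rose most among these ligands. It had 0.421, 0.568 and 0.351 CPM at E8.5, 1.62, 1.34 and 1.49 CPM at E10.5, 3.84, 4.88 and 5.22 CPM at E12.5, and 13.2, 16.2 and 17.2 CPM at E14.5. Each stage lay above the one before it with no overlap. Bmp3 had a log2 fold change of 5.12 ± 0.24 (edgeR adjusted p = 6.62e-18) at E14.5 against E8.5, with 926 counts over the E14.5 libraries and 20 over the E8.5 libraries. Its rises in the 3 steps were close in size, at 1.73 ± 0.30, 1.64 ± 0.20 and 1.74 ± 0.17. The libraries labelled E11.5 had 9.14, 7.36 and 5.95 CPM, beside the values of those labelled E12.5 above.

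Gdf10, also called Bmp3b, was highest at E13.5 and E14.5. It had 12.8, 10.4 and 13.4 CPM at E8.5, 6.45, 6.33 and 6.62 CPM at E10.5, 8.38, 6.23 and 9.55 CPM at E12.5, and 48.9, 48.4 and 46.4 CPM at E14.5. The E14.5 libraries stood far above the rest, and the log2 fold change at E14.5 against E12.5, 2.58 ± 0.14 (edgeR adjusted p = 2.47e-15), was the largest rise among the 43 genes in that step. Against E8.5 it was 1.97 ± 0.14 (edgeR adjusted p = 1.77e-13) at E14.5 and -0.92 ± 0.15 (edgeR adjusted p = 8.9e-06) at E10.5. The rise was already present at E13.5, with 35.0, 31.1 and 38.0 CPM. In the step to E12.5 it was 0.31 ± 0.15 (edgeR adjusted p = 0.117), and it passed without E12.5 library b (0.47, edgeR adjusted p = 0.0229). With the E11.5 libraries in place of E12.5 it was 1.00 (edgeR adjusted p = 1.3e-06), so a rise before E13.5 depends on which libraries stand for that age.

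Bmp6 and Gdf11 peaked in the middle of the series. Bmp6, an osteogenic BMP, had 3.44, 3.76 and 3.57 CPM at E8.5, 17.3, 19.1 and 14.4 CPM at E10.5, 10.1, 7.58 and 8.48 CPM at E12.5, and 9.52, 7.66 and 7.55 CPM at E14.5. The E10.5 libraries lay above those of the other 3 stages, with log2 fold changes of 2.24 ± 0.17 (edgeR adjusted p = 3.9e-12) at E10.5 against E8.5 and -0.96 ± 0.15 (edgeR adjusted p = 7.77e-06) at E12.5 against E10.5. At E13.5 it had 13.8, 17.2 and 19.8 CPM, overlapping the E10.5 libraries. Gdf11, an activin-like ligand that patterns the trunk skeleton and signals through Acvr2a and Acvr2b, had 31.9, 33.6 and 31.2 CPM at E8.5, 72.3, 66.1 and 68.7 CPM at E10.5, 39.6, 41.0 and 39.9 CPM at E12.5, and 31.4, 29.7 and 28.6 CPM at E14.5. Here too the E10.5 libraries were the highest, and the log2 fold change was 1.10 ± 0.09 (edgeR adjusted p = 7.21e-12) at E10.5 against E8.5, -0.78 ± 0.08 (edgeR adjusted p = 1.08e-08) at E12.5 against E10.5 and -0.43 ± 0.09 (edgeR adjusted p = 0.000104) at E14.5 against E12.5.

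Bmp5, the gene disrupted in short ear mice, dipped and rose again, with 11.2 ± 0.184 CPM at E8.5, 7.36 ± 0.714 CPM at E10.5, 7.60 ± 0.252 CPM at E12.5 and 17.4 ± 1.08 CPM at E14.5 (SD, n = 3). For Bmp5 the log2 fold change was -0.61 ± 0.18 (edgeR adjusted p = 0.00701) at E10.5 against E8.5, 0.63 ± 0.18 (edgeR adjusted p = 0.0019) at E14.5 against E8.5 and 1.20 ± 0.18 (edgeR adjusted p = 1.45e-06) at E14.5 against E12.5.

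Gdf5, Gdf6 and Gdf7 are a family of close relatives known from joints, sutures and the roof plate of the neural tube, and their mix changed. Gdf7, the roof plate member, had 5.12, 4.47 and 5.61 CPM at E8.5, 3.42, 3.50 and 2.88 CPM at E10.5, 3.38, 2.18 and 2.79 CPM at E12.5, and 2.94, 1.82 and 1.74 CPM at E14.5. The E14.5 libraries lay below those of E8.5, with a log2 fold change of -1.23 ± 0.31 (edgeR adjusted p = 0.000664), while each of the 3 steps did not pass. At E10.5 against E8.5, -0.64 ± 0.29 (edgeR adjusted p = 0.073), it passed with DESeq2 (-0.69, DESeq2 adjusted p = 0.034) and in 4 other alternatives. With the E11.5 libraries in place of E12.5 it was -1.49 against E10.5 (edgeR adjusted p = 0.000453) and 0.90 at E14.5 (edgeR adjusted p = 0.0344). Gdf7 had its lowest mean, 0.572 ± 0.528 CPM, at E12. Neural tube and roof plate markers summed to 351 to 357 CPM at E8.5, 404 to 418 CPM at E10.5 and 450.1 to 475 CPM at E12. They summed to 380 to 393 CPM at E12.5 and 35.2 to 39.5 CPM at E14.5. Their part in the course of Gdf7 was not tested. Per kb, Gdf7 made up 78.6% of the summed level of the 3 genes at E8.5, 17.5% at E12 and 47.7% at E14.5. Gdf5 had 0.140, 0.142 and 0 CPM at E8.5 and reached its highest mean at E12, with 4.43, 2.68 and 2.89 CPM. The 94 counts over the E14.5 libraries and 4 over the E8.5 libraries gave a ratio of 18.0 after scaling (95% exact interval for counting error alone, 6.81 to 67.5; edgeR adjusted p = 7.49e-08). At E12.5 against E10.5, with 141 and 12 counts, it rose (3.59 ± 0.41, edgeR adjusted p = 3.13e-08). The fall at E14.5 against E12.5, -0.72 ± 0.30 (edgeR adjusted p = 0.0445), was lost without E12.5 library b or c or without any one of the E14.5 libraries (edgeR adjusted p from 0.0675 to 0.147). Gdf6, which is needed for the coronal suture and joints in mouse, had its highest mean at E9, 5.45 ± 0.332 CPM, and its lowest at E11.5, 0.877 ± 0.153 CPM. It fell at E10.5 against E8.5 (-1.09 ± 0.26, edgeR adjusted p = 0.000942) and rose at E14.5 against E12.5 (1.29 ± 0.26, edgeR adjusted p = 0.000113).

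**Figure D3:**
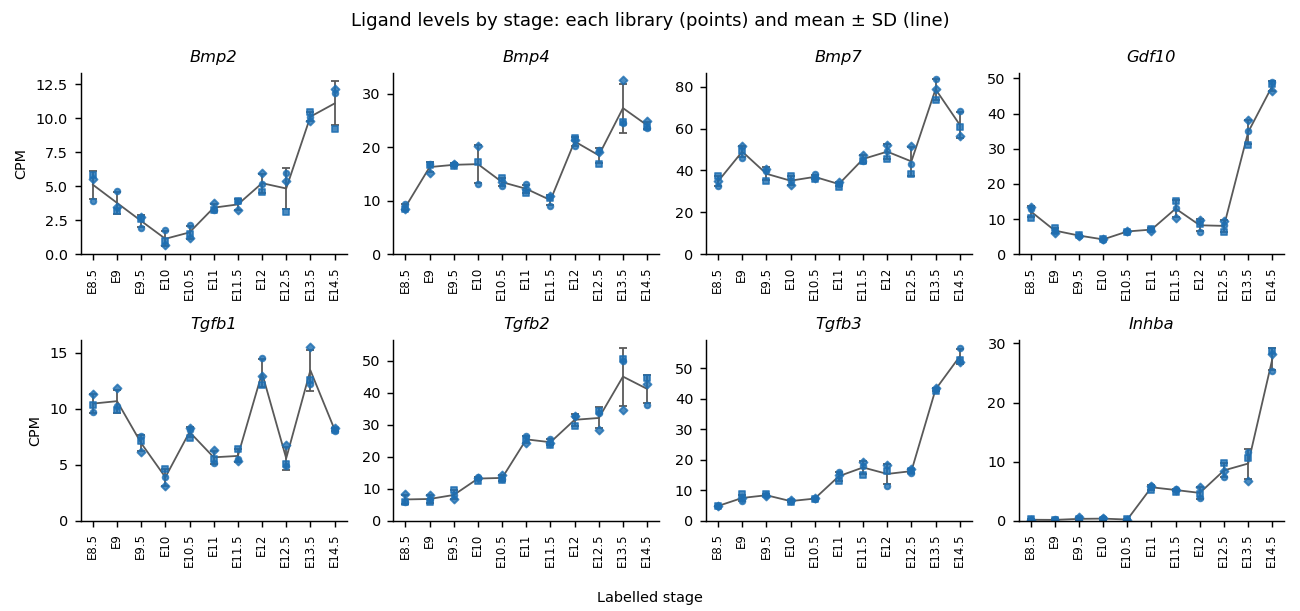
Levels of 8 ligand genes in CPM (linear axis from 0) against the labelled stage, with a point for each of 3 libraries a stage and a line through the means with SD bars. Bmp2 dips to its lowest values at E10 and E10.5, Gdf10, Tgfb3 and Inhba climb most at the last 2 stages, and Tgfb1 has its highest means at E12 and E13.5.

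The TGF-beta ligands changed their balance: Tgfb2 and Tgfb3 rose in every step, and Tgfb1 did not. Tgfb3, whose loss leaves the mouse palate cleft, had 4.77, 4.83 and 4.85 CPM at E8.5, 7.12, 7.26 and 7.34 CPM at E10.5, 15.5, 16.4 and 16.9 CPM at E12.5, and 56.7, 52.6 and 52.1 CPM at E14.5. Each stage stood clear of the one before it. For Tgfb3 the log2 fold change was 3.48 ± 0.13 (edgeR adjusted p = 5.87e-20) at E14.5 against E8.5, and 0.59 ± 0.14 (edgeR adjusted p = 0.000884), 1.16 ± 0.12 (edgeR adjusted p = 8.81e-09) and 1.73 ± 0.12 (edgeR adjusted p = 1.42e-13) in the 3 steps in order.

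Tgfb2, the isoform whose loss in mice affects the skull bones, had 5.69, 5.96 and 8.24 CPM at E8.5, 13, 12.7 and 14.3 CPM at E10.5, 33.7, 34.2 and 28.3 CPM at E12.5, and 36.2, 44.4 and 42.8 CPM at E14.5. The E14.5 libraries lay well above those of E8.5 and just above those of E12.5. Tgfb2 had a log2 fold change of 2.62 ± 0.15 (edgeR adjusted p = 1.01e-15) at E14.5 against E8.5, 1.00 ± 0.15 (edgeR adjusted p = 3.12e-06) at E10.5 against E8.5 and 1.26 ± 0.14 (edgeR adjusted p = 1.34e-08) at E12.5 against E10.5. The last step, 0.36 ± 0.13 (edgeR adjusted p = 0.0219), was lost without E12.5 library c (0.27, edgeR adjusted p = 0.124) or without E14.5 library b or c (edgeR adjusted p = 0.097 and 0.07). At E13.5 libraries a and b had 49.95 and 50.5 CPM and library c 34.5 CPM, so the order of E13.5 and E14.5 is within the spread.

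Tgfb1, the isoform stored in large amounts in bone matrix, had 9.69, 10.4 and 11.3 CPM at E8.5, 8.07, 7.41 and 8.32 CPM at E10.5, 4.93, 5.04 and 6.76 CPM at E12.5, and 8.02, 8.14 and 8.33 CPM at E14.5. Its E8.5 libraries were the highest of these stages and its E12.5 libraries the lowest. For Tgfb1 the log2 fold change was -0.36 ± 0.14 (edgeR adjusted p = 0.0212) at E14.5 against E8.5, and with column totals alone it was 0.07, of the other sign. That call was also lost without E8.5 library c (-0.30, edgeR adjusted p = 0.088). The fall at E10.5 against E8.5, -0.40 ± 0.14 (edgeR adjusted p = 0.018), was lost without E8.5 library c or E10.5 library b (edgeR adjusted p = 0.0847 and 0.0711). The fall at E12.5 against E10.5, -0.51 ± 0.14 (edgeR adjusted p = 0.0059), and the rise at E14.5 against E12.5, 0.55 ± 0.14 (edgeR adjusted p = 0.00173), were kept when any one library was left out. Its highest means lay between these stages, with 14.6, 12.1 and 12.9 CPM at E12 and 12.2, 12.54 and 15.6 CPM at E13.5, the stages whose libraries were least alike and whose erythroid markers summed to 1533 to 4667 CPM and 1129 to 2420 CPM, and their part was not tested.

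Per kb, where levels of different genes can be set side by side, the 3 TGF-beta genes summed to 4.65 ± 0.41, 6.02 ± 0.25, 11.4 ± 0.27 and 24.6 ± 0.20 CPM per kb (SD, n = 3) at E8.5, E10.5, E12.5 and E14.5. Tgfb1 made up 44.7%, 26.1%, 9.69% and 6.58% of the sum at these stages in order. Tgfb3 made up 30.8%, 35.6%, 42.0% and 64.6% at the same stages. Tgfb1 thus had the largest share at E8.5, Tgfb2 at E12.5 and Tgfb3 at E14.5, but the order was not steady in between: Tgfb3 led at E9, E9.5 and E11.5, with 48.8% at E11.5.

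The activin subunit genes started close to 0. Inhba encodes the beta A subunit of activin A, and it had 0.0702, 0.355 and 0.0585 CPM at E8.5, 0.168, 0.360 and 0.0514 CPM at E10.5, 7.34, 9.71 and 8.48 CPM at E12.5, and 25.3, 28.6 and 28.1 CPM at E14.5. It appeared between E10.5 and E11, where the libraries had 5.86, 5.21 and 5.89 CPM, and no library of E10.5 or before exceeded 0.553 CPM. The 1623 counts over the E14.5 libraries and 7 over the E8.5 libraries gave a ratio of 178 after scaling (95% exact interval for counting error alone, 86.1 to 443). For Inhba the log2 fold change was 5.41 ± 0.39 (edgeR adjusted p = 2.52e-12) at E12.5 against E10.5, 1.68 ± 0.23 (edgeR adjusted p = 2.63e-07) at E14.5 against E12.5 and 0.31 ± 0.82 (edgeR adjusted p = 0.778) at E10.5 against E8.5.

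Inhbb encodes the beta B subunit of activin B, and it rose a little earlier. It had 0.0702, 0.0710 and 0.0585 CPM at E8.5, 1.40, 1.29 and 1.54 CPM at E10.5, 19.4, 16.8 and 18.1 CPM at E12.5, and 11.3, 11.1 and 9.84 CPM at E14.5. The E14.5 libraries lay below those of E12.5, and the log2 fold change in that step was -0.76 ± 0.14 (edgeR adjusted p = 2.65e-05). Before that it had risen by 3.68 ± 0.17 (edgeR adjusted p = 1.08e-16) at E12.5 against E10.5. Its E8.5 libraries held 3 counts in all, 1 in each, beside 633 over the E14.5 libraries, a ratio of 162 after scaling (95% exact interval for counting error alone, 55.1 to 787). Between E10.5 and E8.5 the ratio was 21.4 (7.05 to 106). Inhbb did not follow the labelled order of stages closely: the libraries labelled E11.5 had 27.3, 23.0 and 25.5 CPM, those labelled E12 7.08, 9.86 and 9.11 CPM, and those labelled E13.5 29.9, 29.2 and 35.0 CPM.

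**Figure D4:**
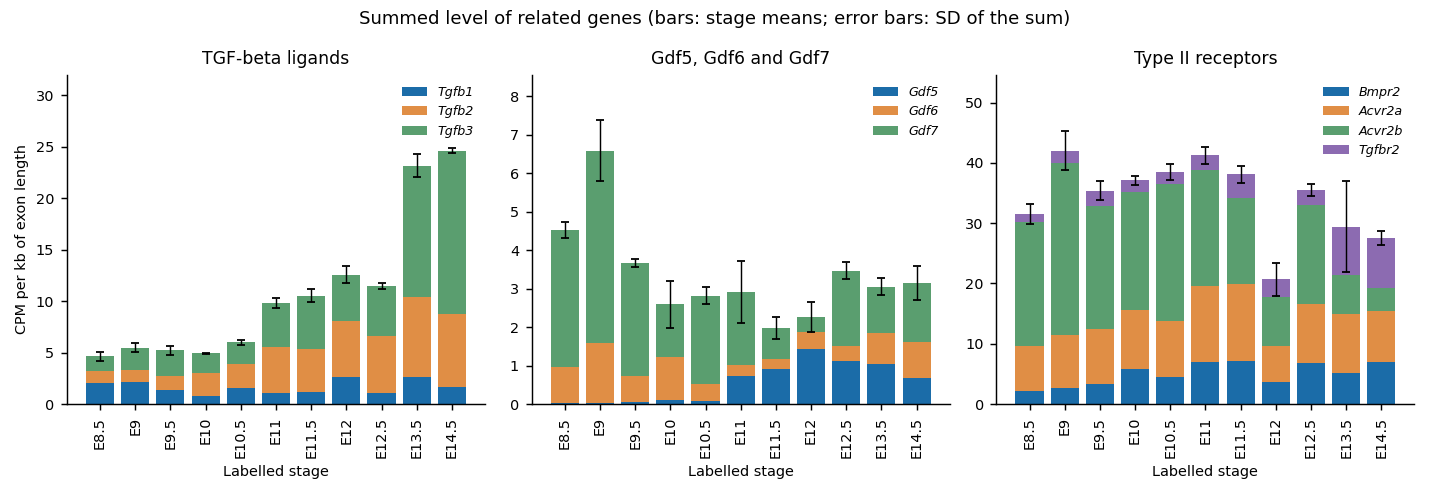
Summed stage means of related genes in CPM per kb of exon length (linear axis from 0) against the labelled stage, with coloured parts for single genes and bars for the SD of the sum over 3 libraries. In the TGF-beta panel the sum grows to 24.6 CPM per kb at E14.5 while the Tgfb1 part shrinks to 6.58% of it, and in the type II receptor panel the Acvr2b part gives way to Tgfbr2.

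Of the 9 receptors, Acvr2b fell most and Tgfbr2 rose most. Set side by side per kb and averaged over all stages, Tgfbr1 had 30.9 CPM per kb, Bmpr1a 24.7 and Acvr2b 16.4, and the other 6 between 2.85 and 9.44. Acvr2b, a type II receptor for activins, Gdf11 and some BMPs, had 76.7, 83.8 and 81.5 CPM at E8.5, 95.0, 85.0 and 87.1 CPM at E10.5, 60.8, 60.5 and 73.0 CPM at E12.5, and 15.9, 15.4 and 13.6 CPM at E14.5. The E14.5 libraries lay below all libraries of the other 3 stages, and those of E12.5 below those of E10.5. Acvr2b had a log2 fold change of -2.43 ± 0.14 (edgeR adjusted p = 2.62e-15) at E14.5 against E8.5, the largest fall of any of the 43 genes in that contrast. It was -2.11 ± 0.14 (edgeR adjusted p = 2.12e-13) at E14.5 against E12.5, -0.46 ± 0.13 (edgeR adjusted p = 0.00699) at E12.5 against E10.5 and 0.14 ± 0.13 (edgeR adjusted p = 0.389) at E10.5 against E8.5.

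Tgfbr2, the type II receptor of the TGF-beta ligands, went the other way. It had 10.6, 10.01 and 11.3 CPM at E8.5, 18.5, 15.4 and 17.4 CPM at E10.5, 21.5, 20.4 and 18.3 CPM at E12.5, and 73.2, 67.2 and 65.9 CPM at E14.5. The E14.5 libraries stood at more than 3 times any library of the other 3 stages. For Tgfbr2 the log2 fold change was 2.69 ± 0.11 (edgeR adjusted p = 7.73e-19) at E14.5 against E8.5, 0.68 ± 0.11 (edgeR adjusted p = 1.18e-05) at E10.5 against E8.5, 0.23 ± 0.11 (edgeR adjusted p = 0.101) at E12.5 against E10.5 and 1.78 ± 0.11 (edgeR adjusted p = 1.19e-14) at E14.5 against E12.5. The step to E12.5 passed in 4 alternatives on the same libraries, and with the E11.5 libraries in place of E12.5 it was 0.92 (edgeR adjusted p = 1.88e-08). Among the 4 type II receptors, Bmpr2, Acvr2a, Acvr2b and Tgfbr2, the share of Tgfbr2 per kb was 4.13%, 5.42%, 6.91% and 30.5% at the 4 stages in order. The share of Acvr2b was 65.2%, 58.8%, 46.4% and 13.8% at those stages. The sum of the 4 was 27.6 ± 1.20 CPM per kb at E14.5 and 31.5 ± 1.69 at E8.5 (SD, n = 3).

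Tgfbr3, or betaglycan, presents TGF-beta ligands to Tgfbr2 and rose with it at the end. It had 20.9, 22.4 and 23.4 CPM at E8.5, 18.4, 19.9 and 19.8 CPM at E10.5, 13.9, 14.8 and 14.9 CPM at E12.5, and 52.4, 56.1 and 53.4 CPM at E14.5. The E12.5 libraries were the lowest of these stages and those of E14.5 the highest. For Tgfbr3 the log2 fold change was 1.28 ± 0.13 (edgeR adjusted p = 5.24e-10) at E14.5 against E8.5 and 1.89 ± 0.13 (edgeR adjusted p = 5.34e-13) at E14.5 against E12.5. The fall at E12.5 against E10.5, -0.41 ± 0.14 (edgeR adjusted p = 0.0172), was lost without E10.5 library b or c or E12.5 library a (edgeR adjusted p = 0.0533, 0.0506 and 0.0636). Tgfbr1, the type I partner of Tgfbr2, had 199, 202 and 217 CPM at E8.5, 258, 262 and 273 CPM at E10.5, 184, 215 and 167 CPM at E12.5, and 148, 157 and 155 CPM at E14.5. Its E14.5 libraries lay below those of E8.5, with a log2 fold change of -0.42 ± 0.15 (edgeR adjusted p = 0.0105), which was 0.01 with column totals alone. The step to E12.5, -0.49 ± 0.15 (edgeR adjusted p = 0.00869), was lost without E12.5 library c (edgeR adjusted p = 0.0574). The rise at E10.5 against E8.5, 0.36 ± 0.15 (edgeR adjusted p = 0.04), was lost without any one of the 6 libraries compared (edgeR adjusted p from 0.0539 to 0.165).

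The BMP receptors changed unequally. Bmpr1b, a type I receptor of limb and cartilage, had 7.86, 6.32 and 9.002 CPM at E8.5, 16.6, 15.3 and 19.8 CPM at E10.5, 26.2, 26.1 and 23.4 CPM at E12.5, and 20.1, 23.0 and 19.5 CPM at E14.5. The E8.5 libraries lay below all others. Bmpr1b had a log2 fold change of 1.43 ± 0.18 (edgeR adjusted p = 3.94e-08) at E14.5 against E8.5, 1.15 ± 0.18 (edgeR adjusted p = 5.07e-06) at E10.5 against E8.5 and -0.27 ± 0.17 (edgeR adjusted p = 0.169) at E14.5 against E12.5. The rise at E12.5 against E10.5, 0.55 ± 0.17 (edgeR adjusted p = 0.0103), was lost without E10.5 library b (0.47, edgeR adjusted p = 0.0624) and was -0.13 with the E11.5 libraries in place of E12.5. Bmpr2, the BMP type II receptor, had 37.1, 40.5 and 44.0 CPM at E8.5, 81.5, 76.0 and 88.8 CPM at E10.5, 116, 143 and 107 CPM at E12.5, and 112, 139.9 and 121 CPM at E14.5. It too started lowest at E8.5, with log2 fold changes of 1.62 ± 0.20 (edgeR adjusted p = 2.39e-08) at E14.5 against E8.5, 1.02 ± 0.20 (edgeR adjusted p = 9.36e-05) at E10.5 against E8.5, 0.57 ± 0.19 (edgeR adjusted p = 0.0207) at E12.5 against E10.5 and 0.03 ± 0.19 (edgeR adjusted p = 0.915) at E14.5 against E12.5. The step to E12.5 was lost without E10.5 library a or b or E12.5 library b (edgeR adjusted p = 0.0547, 0.0794 and 0.122).

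Bmpr1a, the type I receptor of highest level among the BMP receptors per kb, ranged only between a mean of 121 ± 6.33 CPM at E12 and 187 ± 8.46 CPM at E9.5 (SD, n = 3). It passed in none of the 4 contrasts, with 0.11 ± 0.10 at E14.5 against E8.5, but was higher at E14.5 than in the E11.5 libraries (0.47, edgeR adjusted p = 0.000417). Acvr1, the type I receptor mutated in the ectopic bone disease fibrodysplasia ossificans progressiva in people, ranged between 14.4 ± 0.947 CPM at E10 and 32.7 ± 1.45 CPM at E13.5. In the main fit it passed only at E14.5 against E12.5, 0.28 ± 0.10 (edgeR adjusted p = 0.0154), and not there without E12.5 library a or E14.5 library b (edgeR adjusted p = 0.0557 and 0.0581). At E14.5 against E8.5 it passed with DESeq2 (0.22, DESeq2 adjusted p = 0.0348) and with column totals alone (0.59, edgeR adjusted p = 4.92e-05). At E10.5 against E8.5 it passed with a trend in gene length removed (-0.34, edgeR adjusted p = 0.00224). Acvr2a, a type II receptor for activins and BMPs, ranged between 34.0 ± 6.82 CPM at E12 and 73.2 ± 5.47 CPM at E11.5 and passed in none of the 4 contrasts. With the E11.5 libraries in place of E12.5 it passed in both directions, at 0.48 against E10.5 (edgeR adjusted p = 0.0053) and -0.61 at E14.5 (edgeR adjusted p = 0.000727). Against E8.5 it passed at E14.5 and at E10.5 in 3 alternatives each, with 0.61 and 0.48 with column totals alone.

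The antagonists and binding proteins also parted: Chrd and Grem1 were highest at E14.5, while Nog was lowest there. Nog encodes Noggin, which binds Bmp2, Bmp4 and Bmp7 and keeps them from their receptors. It had 12.01, 9.87 and 10.1 CPM at E8.5, 4.88, 6.79 and 6.01 CPM at E10.5, 5.28, 7.95 and 8.96 CPM at E12.5, and 3.58, 3.10 and 3.94 CPM at E14.5. The E14.5 libraries lay below all libraries of the other 3 stages, and those of E8.5 above them. For Nog the log2 fold change was -1.58 ± 0.20 (edgeR adjusted p = 4.95e-08) at E14.5 against E8.5, -0.85 ± 0.19 (edgeR adjusted p = 0.000586) at E10.5 against E8.5 and -1.06 ± 0.21 (edgeR adjusted p = 6.71e-05) at E14.5 against E12.5. At E12.5 against E10.5 it was 0.32 ± 0.20 (edgeR adjusted p = 0.209), and it passed without E12.5 library a (0.52, edgeR adjusted p = 0.0498). Between these stages the course was not smooth, since the E12 libraries had 17.0, 11.4 and 11.8 CPM and the E13.5 libraries 8.91, 7.90 and 12.1 CPM. Nog is known from the roof plate as well as from sutures. Neural tube and roof plate markers summed to 351 to 357 CPM at E8.5 and 404 to 418 CPM at E10.5. They summed to 184.1 to 211.5 CPM at E13.5 and 35.2 to 39.5 CPM at E14.5. Their part in the course of Nog was not tested.

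Grem1 encodes Gremlin, another direct BMP antagonist, and traced a deep dip. It had 11.9, 12.8 and 13.2 CPM at E8.5, 1.51, 1.85 and 2.16 CPM at E10.5, 8.49, 5.50 and 4.75 CPM at E12.5, and 23.1, 23.0 and 25.9 CPM at E14.5. No libraries of different stages overlapped: E10.5 lay lowest, then E12.5, then E8.5, then E14.5. For Grem1 the log2 fold change was -2.77 ± 0.22 (edgeR adjusted p = 7.39e-12) at E10.5 against E8.5, the largest fall among the 43 genes in that step. It then rose by 1.75 ± 0.22 (edgeR adjusted p = 2.36e-07) at E12.5 against E10.5 and 1.94 ± 0.18 (edgeR adjusted p = 2.96e-10) at E14.5 against E12.5, for a net 0.93 ± 0.18 (edgeR adjusted p = 2.72e-05) at E14.5 against E8.5. Surface epithelium markers were low at E10.5 as well, summing to 24.9 to 30.2 CPM there, against 101 to 114 CPM at E8.5, and their part in the dip was not tested.

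Chrd encodes Chordin, which holds BMPs in a complex until a protease cuts it. It had 4.07, 2.63 and 2.92 CPM at E8.5, 8.35, 11.3 and 7.75 CPM at E10.5, 13.02, 13.9 and 13.3 CPM at E12.5, and 27.7, 24.4 and 25.9 CPM at E14.5. Each stage lay above the one before it. Chrd had a log2 fold change of 3.02 ± 0.17 (edgeR adjusted p = 5.48e-16) at E14.5 against E8.5, and 1.51 ± 0.17 (edgeR adjusted p = 1.96e-08), 0.55 ± 0.15 (edgeR adjusted p = 0.00413) and 0.95 ± 0.14 (edgeR adjusted p = 1.5e-06) in the 3 steps in order. Bmp1 encodes that protease, which also trims procollagens, and it rose in each step too. It averaged 55.5 ± 3.86 CPM at E8.5, 93.4 ± 3.73 CPM at E10.5, 154 ± 7.06 CPM at E12.5 and 334 ± 7.97 CPM at E14.5 (SD, n = 3), with a log2 fold change of 2.59 ± 0.10 (edgeR adjusted p = 3.1e-20) at E14.5 against E8.5. Bmper, a BMP-binding protein that can hold back or promote signalling, dipped at E10.5 and then rose, with 7.41 ± 0.906 CPM at E8.5, 3.55 ± 0.412 CPM at E10.5, 10.7 ± 0.123 CPM at E12.5 and 21.5 ± 1.48 CPM at E14.5. For Bmper the log2 fold change was -1.06 ± 0.14 (edgeR adjusted p = 1.81e-07) at E10.5 against E8.5 and 1.54 ± 0.12 (edgeR adjusted p = 1.86e-12) at E14.5 against E8.5.

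Bambi encodes a receptor look-alike without a kinase, which blocks type I receptors and is itself a BMP target. It had 28.1, 26.3 and 24.8 CPM at E8.5, 24.6, 23.5 and 24.4 CPM at E10.5, 22.1, 19.3 and 21.2 CPM at E12.5, and 41.5, 37.6 and 38.9 CPM at E14.5. The E14.5 libraries were the highest of these stages. For Bambi the log2 fold change was 0.57 ± 0.13 (edgeR adjusted p = 0.000313) at E14.5 against E8.5 and 0.91 ± 0.13 (edgeR adjusted p = 9.81e-07) at E14.5 against E12.5, while the steps of -0.13 ± 0.13 (edgeR adjusted p = 0.44) at E10.5 against E8.5 and -0.21 ± 0.13 (edgeR adjusted p = 0.239) at E12.5 against E10.5 did not pass. With the E11.5 libraries in place of E12.5 the last was -0.54 (edgeR adjusted p = 0.0012).

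Fst encodes Follistatin, which binds activins with high affinity, and it had 33.1, 33.6 and 32.4 CPM at E8.5, 18.4, 17.0 and 15.7 CPM at E10.5, 11.2, 11.6 and 9.37 CPM at E12.5, and 18.0, 19.3 and 18.9 CPM at E14.5. The E8.5 libraries stood above all others and those of E12.5 below all others. Fst had a log2 fold change of -0.82 ± 0.12 (edgeR adjusted p = 2.54e-07) at E14.5 against E8.5, -0.95 ± 0.12 (edgeR adjusted p = 5.54e-08) at E10.5 against E8.5, -0.66 ± 0.12 (edgeR adjusted p = 5.72e-05) at E12.5 against E10.5 and 0.80 ± 0.12 (edgeR adjusted p = 1.58e-06) at E14.5 against E12.5. Fstl3, a relative that also binds activins, had 2.02 ± 0.118 CPM at E14.5 and 0.834 ± 0.337 CPM at E8.5 (1.29 ± 0.37, edgeR adjusted p = 0.00265). Fstl1, a secreted glycoprotein of mesenchyme in the same protein family, had the highest level per kb of the 43 genes, averaging 76.4 CPM per kb over the stages. It had 1012 ± 17.5 CPM at E14.5 and 215 ± 5.97 CPM at E8.5, a log2 fold change of 2.23 ± 0.07 (edgeR adjusted p = 1.6e-22). Chrdl1, a Chordin-like BMP antagonist, had 25.4 ± 1.38 CPM at E8.5, 5.99 ± 1.01 CPM at E10.5 and 17.8 ± 1.53 CPM at E14.5. For Chrdl1 the log2 fold change was -2.09 ± 0.20 (edgeR adjusted p = 6.73e-10) at E10.5 against E8.5, and its net change of -0.52 ± 0.19 (edgeR adjusted p = 0.0141) at E14.5 against E8.5 was -0.08 with column totals alone (edgeR adjusted p = 0.722).

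**Figure D5:**
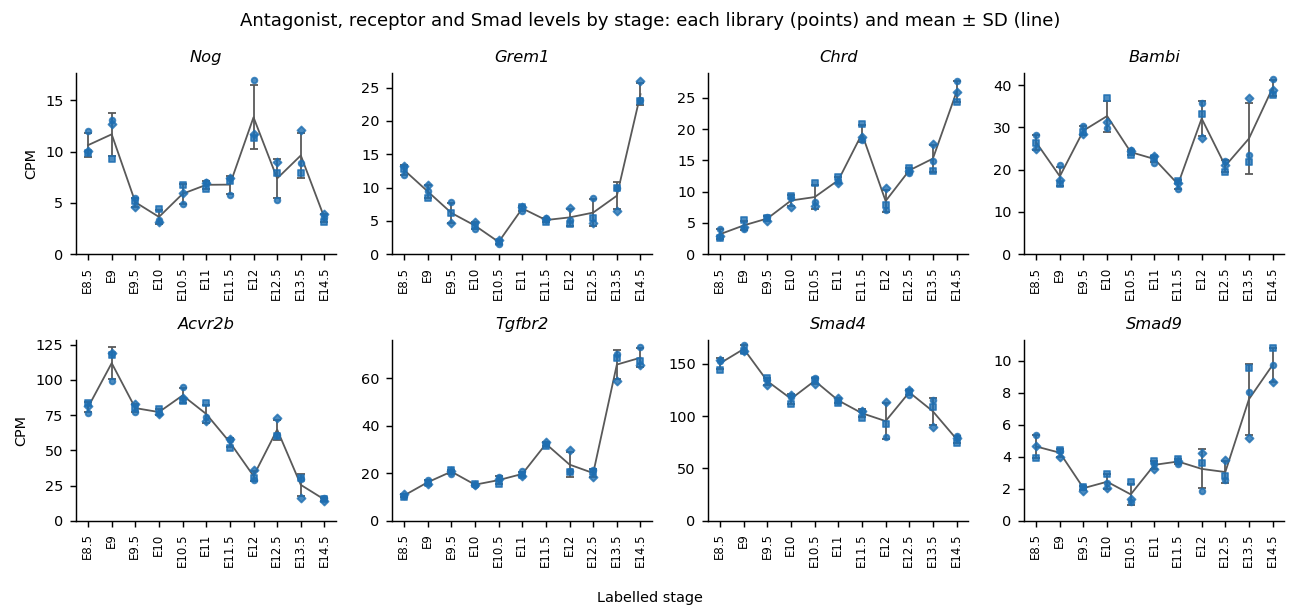
Levels of 8 antagonist, receptor and Smad genes in CPM (linear axis from 0) against the labelled stage, with a point for each of 3 libraries a stage and a line through the means with SD bars. Grem1, Chrd, Tgfbr2 and Smad9 are highest at E14.5, while Nog, Acvr2b and Smad4 have their lowest means there; Grem1 and Smad9 dip at E10.5.

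Of the 8 Smads, which carry the signal inside the cell, 2 were higher and 3 lower at E14.5 against E8.5, with a median log2 fold change of -0.07. Of all tested genes 41.1% were higher and 33.5% lower, with a median of 0.16. Smad4, the common partner of all receptor Smads, had 153, 145 and 154 CPM at E8.5, 136, 134 and 131 CPM at E10.5, 120.1, 123 and 125 CPM at E12.5, and 80.9, 74.4 and 78.9 CPM at E14.5. The E14.5 libraries lay below all others of these stages. For Smad4 the log2 fold change was -0.95 ± 0.09 (edgeR adjusted p = 8.56e-11) at E14.5 against E8.5 and -0.65 ± 0.09 (edgeR adjusted p = 2.85e-07) at E14.5 against E12.5, and it did not pass in the earlier steps, -0.17 ± 0.09 (edgeR adjusted p = 0.109) at E10.5 against E8.5 and -0.12 ± 0.09 (edgeR adjusted p = 0.288) at E12.5 against E10.5. Of these the first passed in 5 alternatives, DESeq2 among them (-0.23, DESeq2 adjusted p = 0.0256), and the second with the E11.5 libraries in place of E12.5 (-0.38, edgeR adjusted p = 0.000536). Smad3, a receptor Smad for TGF-beta and activin, had 137, 150.2 and 153 CPM at E8.5, 165, 163 and 162 CPM at E10.5, 112, 107 and 117 CPM at E12.5, and 81.5, 75.7 and 73.5 CPM at E14.5. The E14.5 libraries were again the lowest, with log2 fold changes of -0.93 ± 0.12 (edgeR adjusted p = 4.23e-08) at E14.5 against E8.5, -0.54 ± 0.12 (edgeR adjusted p = 0.000457) at E12.5 against E10.5 and -0.54 ± 0.12 (edgeR adjusted p = 0.000282) at E14.5 against E12.5. In place of E12.5 the E11.5 libraries, at 65.7, 67.8 and 74.2 CPM, gave 0.15 in that last contrast. Smad2, the other Smad of that branch, kept a narrow range, between 68.6 ± 8.56 CPM at E12 and 105 ± 1.5 CPM at E10.5. It passed at E10.5 against E8.5, 0.21 ± 0.07 (edgeR adjusted p = 0.0211), and at E12.5 against E10.5, -0.21 ± 0.07 (edgeR adjusted p = 0.0257), and each call was lost without any one of 4 of the 6 libraries compared (edgeR adjusted p from 0.0503 to 0.185 and from 0.0617 to 0.107). The first was -0.03 with a trend in gene length removed.

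Smad9, the receptor Smad of the BMP branch with the lowest level, fell by E10.5 and then rose in both steps, as Bmp2, Grem1 and Bmper did. It had 5.34, 3.90 and 4.68 CPM at E8.5, 1.18, 2.42 and 1.33 CPM at E10.5, 2.52, 2.80 and 3.796 CPM at E12.5, and 9.73, 10.8 and 8.65 CPM at E14.5. The E10.5 libraries were the lowest and those of E14.5 the highest. Smad9 had a log2 fold change of 1.07 ± 0.22 (edgeR adjusted p = 0.000101) at E14.5 against E8.5, -1.49 ± 0.26 (edgeR adjusted p = 2.3e-05) at E10.5 against E8.5 and 1.68 ± 0.23 (edgeR adjusted p = 3.45e-07) at E14.5 against E12.5. The rise at E12.5 against E10.5, 0.88 ± 0.27 (edgeR adjusted p = 0.0107), was lost without E10.5 library a or c or E12.5 library c (edgeR adjusted p = 0.0739, 0.0625 and 0.0771). Smad5, another Smad of the BMP branch, had 163, 161 and 164 CPM at E8.5, 217, 216 and 224 CPM at E10.5, 282, 284 and 264 CPM at E12.5, and 220.4, 227 and 226 CPM at E14.5. Its E8.5 libraries were the lowest and its E12.5 libraries the highest, with log2 fold changes of 0.47 ± 0.07 (edgeR adjusted p = 4.43e-07) at E14.5 against E8.5, 0.43 ± 0.07 (edgeR adjusted p = 4.56e-06) at E10.5 against E8.5, 0.34 ± 0.07 (edgeR adjusted p = 0.000187) at E12.5 against E10.5 and -0.30 ± 0.07 (edgeR adjusted p = 0.000353) at E14.5 against E12.5. With the E11.5 libraries in place of E12.5 the last 2 were lost (0.11, edgeR adjusted p = 0.164, and -0.0764, edgeR adjusted p = 0.36), and the last also with column totals alone (-0.16, edgeR adjusted p = 0.0951). Smad1, the remaining one, had 46.3, 48.6 and 45.5 CPM at E8.5, 41.1, 37.7 and 38.2 CPM at E10.5, 40.3, 41.2 and 43.4 CPM at E12.5, and 40.7, 39.5 and 39.3 CPM at E14.5. It changed by -0.23 ± 0.07 (edgeR adjusted p = 0.00599) at E14.5 against E8.5, which was 0.20 with column totals alone, and by -0.26 ± 0.07 (edgeR adjusted p = 0.00408) at E10.5 against E8.5. Per kb, Smad5 made up between 72.4% at E8.5 and 85.0% at E10 of the summed level of the 3, and Smad9 4.72% at E14.5 and 2.86% at E8.5.

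The inhibitory Smads, which BMP and TGF-beta signals switch on as feedback, passed in 1 of 8 contrasts between them in the main fit. Smad6, which holds back mainly the BMP branch, had 14.6, 13.3 and 10.4 CPM at E8.5, 12.6, 13.7 and 12.4 CPM at E10.5, 9.87, 10.2 and 10.4 CPM at E12.5, and 11.8, 12.2 and 13.7 CPM at E14.5. For Smad6 the log2 fold change was -0.02 ± 0.14 (edgeR adjusted p = 0.91) at E14.5 against E8.5, 0.02 ± 0.14 (edgeR adjusted p = 0.917) at E10.5 against E8.5 and 0.31 ± 0.14 (edgeR adjusted p = 0.0604) at E14.5 against E12.5. With column totals alone the first was 0.42 (edgeR adjusted p = 0.0101), and with DESeq2 the last passed (0.40, DESeq2 adjusted p = 0.0112). It passed at E12.5 against E10.5, -0.35 ± 0.14 (edgeR adjusted p = 0.0491), and that call was lost without any one of the 6 libraries compared (edgeR adjusted p from 0.0668 to 0.156). Smad7, which holds back both branches, had 8.85, 10.4 and 10.52 CPM at E8.5, 9.75, 11.7 and 12.7 CPM at E10.5, 10.6, 11.3 and 11.8 CPM at E12.5, and 11.7, 11.3 and 9.84 CPM at E14.5. The stages overlapped in all 4 contrasts, and none passed, with log2 fold changes of 0.14 ± 0.15 (edgeR adjusted p = 0.407) at E14.5 against E8.5, 0.20 ± 0.15 (edgeR adjusted p = 0.268) at E10.5 against E8.5, -0.02 ± 0.15 (edgeR adjusted p = 0.918) at E12.5 against E10.5 and -0.04 ± 0.15 (edgeR adjusted p = 0.842) at E14.5 against E12.5. With the E11.5 libraries in place of E12.5 the last 2 passed, at -0.43 against E10.5 (edgeR adjusted p = 0.0154) and 0.37 at E14.5 (edgeR adjusted p = 0.0406). With column totals alone the first 2 passed, at 0.57 (edgeR adjusted p = 0.000923) and 0.38 (edgeR adjusted p = 0.0332). The p-values that did not pass do not show that the levels were equal.

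Other genes of the pathway were read from lists chosen by role. Over all tested genes, 41.1% were called higher and 33.5% lower at E14.5 against E8.5. In the 3 steps in order, 28.2%, 18.8% and 25.3% were higher and 21.3%, 17.2% and 28.6% lower. These shares are the background for the counts of every list below. Of 16 genes that keep TGF-beta latent or release it, 15 were tested, and 13 were higher and 1 lower at E14.5 against E8.5, with a median log2 fold change of 1.16, beside 0.16 for all genes. In the 3 steps in order, 8, 5 and 13 were higher and 1, 3 and 1 lower. Ltbp2, a latent TGF-beta binding protein of the matrix, had 32.7, 30.4 and 28.3 CPM at E14.5, against 0.0702, 0.426 and 0.292 CPM at E8.5 (6.81 ± 0.29, edgeR adjusted p = 1.23e-18). Itgb8, the integrin subunit that frees TGF-beta from its latent complex, had 8.07, 12.3 and 8.74 CPM at E14.5, against 16.1, 19.7 and 18.9 CPM at E8.5 (-0.92 ± 0.21, edgeR adjusted p = 0.000258), but it was far higher in between, with 88.2, 87.8 and 92.6 CPM at E10.5 (2.29 ± 0.20, edgeR adjusted p = 6.39e-11 against E8.5). It fell at E12.5 against E10.5 (-1.35 ± 0.19, edgeR adjusted p = 9.74e-07) and at E14.5 against E12.5 (-1.85 ± 0.20, edgeR adjusted p = 5.76e-09). Ltbp3, a binding protein needed for normal skull growth in mice, had 88.4, 72.8 and 91.5 CPM at E12.5, against 14.6, 15.2 and 14.2 CPM at E10.5 (2.52 ± 0.12, edgeR adjusted p = 1.74e-16). Ltbp1 fell at E10.5 against E8.5 (-0.79 ± 0.11, edgeR adjusted p = 1.03e-06), and Ltbp2 rose again at E14.5 against E12.5 (3.87 ± 0.21, edgeR adjusted p = 1.81e-15).

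All 12 further antagonists on the list were tested, and 11 were higher and 1 lower at E14.5 against E8.5, with a median of 1.68. In the 3 steps 5, 5 and 8 were higher and 1, 1 and 0 lower. Dcn, or decorin, a matrix proteoglycan that binds TGF-beta, had 475, 536 and 538 CPM at E14.5, against 1.05, 1.63 and 1.34 CPM at E8.5 (8.58 ± 0.14, edgeR adjusted p = 6.28e-28), and it is also on the list of mesenchyme markers. It rose at E12.5 against E10.5 (3.84 ± 0.11, edgeR adjusted p = 1.48e-21) and at E14.5 against E12.5 (3.20 ± 0.10, edgeR adjusted p = 1.76e-21). The member that fell was Sost, a gene of osteocytes in later bone, with 0.642, 0.214 and 0.0915 CPM at E14.5, against 0.983, 0.781 and 1.99 CPM at E8.5 (-2.02 ± 0.49, edgeR adjusted p = 0.000496). Sostdc1 fell at E10.5 against E8.5 (-0.45 ± 0.16, edgeR adjusted p = 0.0178) and Crim1 at E12.5 against E10.5 (-0.63 ± 0.17, edgeR adjusted p = 0.00422).

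Of 17 further ligands, only 6 were tested, and 3 were higher and 1 lower at E14.5 against E8.5, with a median of 1.51. In the 3 steps 1, 1 and 4 were higher and 2, 0 and 0 lower. Lefty1, an inhibitor of Nodal, had 5.19, 3.05 and 4.17 CPM at E14.5, against 0.211, 0.284 and 0.117 CPM at E8.5 (4.33 ± 0.52, edgeR adjusted p = 1.24e-08), and Amh, anti-Müllerian hormone, had 1.18, 0.375 and 0.641 CPM at E14.5, against 4.002, 2.91 and 3.04 CPM at E8.5 (-2.18 ± 0.45, edgeR adjusted p = 9.29e-05). Inha, the inhibin subunit that pairs with the products of Inhba and Inhbb, rose at E10.5 against E8.5 (1.57 ± 0.21, edgeR adjusted p = 3.12e-07) and at E12.5 against E10.5 (1.31 ± 0.17, edgeR adjusted p = 2.75e-07), to 12.8, 17.1 and 16.4 CPM at E12.5. Mstn, or myostatin, the brake on muscle growth, had 3.15, 2.94 and 2.75 CPM at E14.5, against 0.172, 0.156 and 0.0593 CPM at E12.5 (4.42 ± 0.57, edgeR adjusted p = 1.15e-07), where muscle markers were higher too, and its fall at E10.5 against E8.5 (-1.80 ± 0.71, edgeR adjusted p = 0.0347) was at levels of at most 0.639 CPM. Of 10 further receptors and coreceptors, 7 were tested, and 5 were higher and 1 lower at E14.5 against E8.5, with a median of 0.54, the same with Acvr1c at its bound. In the 3 steps 4, 1 and 2 were higher and 1, 2 and 3 lower. Acvr1c, a type I receptor for Nodal and activins, had no count at E8.5 and 19 over the E14.5 libraries, which makes it at least 4.86-fold higher with the E8.5 sum set to a floor of 3 counts, and at E10.5 at least 5.60-fold higher. It rose at E12.5 against E10.5 (1.45 ± 0.48, edgeR adjusted p = 0.0185) and fell at E14.5 against E12.5 (-1.65 ± 0.49, edgeR adjusted p = 0.00523). Rgma, a BMP coreceptor, had 47.3, 42.3 and 39.0 CPM at E14.5, against 91.1, 99.7 and 88.2 CPM at E8.5 (-1.12 ± 0.13, edgeR adjusted p = 5.22e-09), and fell at E12.5 against E10.5 (-0.76 ± 0.12, edgeR adjusted p = 1.48e-05). Eng, or endoglin, a coreceptor of endothelium, fell at E10.5 against E8.5 (-0.29 ± 0.10, edgeR adjusted p = 0.0219) and rose at E14.5 against E12.5 (0.83 ± 0.10, edgeR adjusted p = 4.63e-08), where endothelial markers summed to 487 to 518 CPM at E14.5, against 279 to 305 CPM at E12.5.

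The 14 regulators of Smads had a mixed record, with 5 higher and 7 lower at E14.5 against E8.5 and a median of -0.26. Of all tested genes 41.1% were higher and 33.5% lower there, with a median of 0.16. In the 3 steps 4, 2 and 1 were higher and 2, 1 and 7 lower. Skil, a repressor that binds Smads, had 57.7, 66.1 and 58.4 CPM at E14.5, against 30.1, 26.6 and 30.3 CPM at E8.5 (1.07 ± 0.12, edgeR adjusted p = 1.86e-09), and was already higher at E10.5 (1.45 ± 0.12, edgeR adjusted p = 1.31e-11), and Tgif2, another repressor, had 14.54, 15.9 and 14.8 CPM, against 34.9, 40.5 and 39.8 CPM (-1.35 ± 0.25, edgeR adjusted p = 2.43e-05). Nedd4l, a ubiquitin ligase for Smads, rose at E12.5 against E10.5 (1.09 ± 0.12, edgeR adjusted p = 1.22e-08) and fell at E14.5 against E12.5 (-0.95 ± 0.12, edgeR adjusted p = 5.52e-08). The other extremes were Tgif1 at E10.5 against E8.5 (-0.33 ± 0.08, edgeR adjusted p = 0.00124), Ski at E12.5 against E10.5 (-0.27 ± 0.11, edgeR adjusted p = 0.0422) and Zfyve16 at E14.5 against E12.5 (0.34 ± 0.11, edgeR adjusted p = 0.0109).

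Genes known as targets of the pathways moved in both directions, with 6 of 14 tested higher and 4 lower at E14.5 against E8.5. That is near the 41.1% and 33.5% of all tested genes called higher and lower. Their median was 0.12, beside 0.16 for all genes. In the 3 steps 6, 4 and 6 were higher and 5, 4 and 3 lower. Of all tested genes 28.2%, 18.8% and 25.3% were higher in these steps, and 21.3%, 17.2% and 28.6% lower. Pmepa1, a TGF-beta target that dampens the signal, had 36.1, 34.5 and 31.5 CPM at E14.5, against 0.632, 0.497 and 0.0585 CPM at E8.5 (6.47 ± 0.25, edgeR adjusted p = 5.97e-20), and it was already higher at E10.5 (4.62 ± 0.27, edgeR adjusted p = 1.11e-14 against E8.5). Id3, a classical BMP target, had 157, 148 and 156 CPM at E14.5, against 389.9, 400.5 and 366 CPM at E8.5 (-1.32 ± 0.16, edgeR adjusted p = 1.77e-08). Id4, a relative that is also a gene of neural progenitors, rose at E12.5 against E10.5 (1.49 ± 0.12, edgeR adjusted p = 1.08e-11) and fell to 19.7, 22.5 and 23.4 CPM at E14.5, against 202, 225 and 198 CPM at E12.5 (-3.25 ± 0.13, edgeR adjusted p = 3.29e-19), where the neural tube and roof plate markers summed to 35.2 to 39.5 CPM at E14.5, against 380 to 393 CPM at E12.5. Ccn2, a TGF-beta target of connective tissue, fell at E12.5 against E10.5 (-1.20 ± 0.13, edgeR adjusted p = 9.88e-09) and rose at E14.5 against E12.5 (1.36 ± 0.13, edgeR adjusted p = 3.09e-10).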

How the data were processed

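PolyA RNA of mouse frontal bone at 11 stages was sequenced in 3 libraries a stage. The authors deposited 1 table of raw counts per gene, with an exonic length for each of 55401 genes. The submitters' processing notes list cutadapt 1.9.1, HISAT2 2.0.1, HTSeq 0.6.1 and GRCm38, with the annotation release and strand setting not given in the sources used here. The names in the column headers put each column in its stage but do not tie its letter to a numbered sample, so the letters a, b and c are only names.

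Symbols came from GENCODE M21, which matched 55141 identifiers. Genes were filtered with filterByExpr, which left 20073, and scaled by TMM (factors 0.797 to 1.175). They were fitted over all 33 libraries with edgeR 4.0.16 in R 4.3.3 (limma 3.58.1), using the quasi-likelihood F-test with 22 residual degrees of freedom. Fold changes used edgeR's default prior count. A prior count of 2 entered only the log2 levels behind the principal component, the correlations and the length trend. The 4 contrasts and a test of any change were read, each adjusted over all tested genes by Benjamini-Hochberg, and called at an adjusted p below 0.05. Levels are CPM after scaling, per kb with the deposited exonic lengths. Standard errors are approximate, from the fold change and its F. Intervals and floors cover counting error only, at 95% and 3 counts. Column totals of 14516518 to 19964404 set the precision of low genes. The fitting script was tested on simulated data. No 2 libraries of a stage were copies, since a chi-square per gene was at least 1.85 in each pair.

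The members and lists were chosen with earlier results of these data known. Genes were named by this rule: for each contrast and role, the largest rise and the largest fall among called members whose higher stage averaged 5 CPM or more and whose libraries did not overlap; always Bmp2, Bmp4, Bmp7, Tgfb2, Tgfb3, Bmpr1b, Nog, Grem1, Bambi, Smad6, Smad7 and Smad9; and in the other lists the called gene with the largest rise and fall. Of the genes this rule names in the other lists, 2 are not reported here. The remaining members are described so that each of the 43 is accounted for. Alternatives were other scaling, other filters, DESeq2 1.42.0, a replicate block, a length trend, fewer libraries, another stage in place of E12.5 and leaving out each library in turn. Figures were drawn with matplotlib 3.10.9.

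Promoter windows came from RefSeq on GRCm38.p6 and were searched on both strands. The 28 genes with an entry were matched by symbol. The 15 others were Smad4, Gdf6, Bmp2, Bmp3, Smad2, Bmp7, Smad7, Fst, Nog, Gdf5, Bambi, Tgfbr3, Tgfb3, Chrdl1 and Bmp1.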

Additional observations from a re-analysis of the deposited data

How the results depend on the processing

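Of 123 calls of a gene in a contrast, 97 kept their direction and their side of the threshold under every alternative run, and 15 were lost when some single library was left out. The number of the 43 genes called in either direction stayed within 1.5 times in every alternative, with 2 exceptions, both with column totals alone: 6 genes were lower at E14.5 against E8.5, beside 10, and 5 at E12.5 against E10.5, beside 10. That scaling moved the median of all genes by 0.43 at E14.5 against E8.5, and by 0.17, 0.12 and 0.14 in the 3 steps in order. It turned the sign at E14.5 against E8.5 of Gdf11 (0.33), Tgfb1 (0.0734), Tgfbr1 (0.0109), Smad1 (0.20), Smad2 (0.31) and Smad6 (0.42). Removing the length trend turned Smad2 at E10.5 against E8.5 (-0.0337). With E11.5 standing in for E12.5, the sign turned for Bmp4 (-0.41) and Bmpr1b (-0.13) against E10.5, and at E14.5 for Gdf7 (0.90), Bmpr1b (0.40), Smad3 (0.15) and Smad7 (0.37). In the same setting 14 further calls were gained and 5 lost. The cause was not tested.

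The column letters did not pair libraries, since same-lettered libraries deviated together with correlations of only -0.069 to 0.075. With a replicate block on the letter, 25 and 10 genes were higher and lower at E14.5 against E8.5, 16 and 12, 18 and 10, and 24 and 7 in the 3 steps, and 43 changed over the stages. The block ended 1 call, Gdf5 at E14.5 against E12.5 (-0.72, edgeR adjusted p = 0.0567). With DESeq2 the counts were 26 and 10, then 14 and 14, 18 and 9, and 25 and 8. Depth limits the early values of Inhba, Inhbb and Gdf5, which rest on 7, 3 and 4 counts at E8.5.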

Other observations

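At E13.5, a stage in none of the 4 contrasts, library c stood apart from libraries a and b. Genes at large differed in library c, with a chi-square per gene of 63.1 against a and 67.0 against b. Between a and b it was 1.85. Of the 43 genes, 23 were lower in library c than in both others and 16 were higher. Among the 9 receptors 8 were lower and none higher. The shares of all tested genes lower or higher in library c were not computed, so these counts have no background. Bmpr2 had 44.9 CPM in library c, beside 110.1 and 121 CPM in a and b, Acvr2b 16.4 CPM, beside 29.5 and 30.4 CPM, and Tgfbr1 86.1 CPM, beside 146 and 151 CPM. The drop was smaller for Tgfbr2, with 58.9 CPM, beside 70.1 and 68.5 CPM. Acvr1 was the exception, with 33.3 CPM, beside 33.6 and 31.0 CPM. Of the 10 antagonists and binding proteins 7 were higher and 3 lower, with Bambi at 36.9 CPM, beside 23.4 and 21.7 CPM. The 16 ligand genes were split, with 7 higher and 7 lower: Bmp4 had 32.6 CPM, beside 24.6 and 24.7 CPM, and Tgfb2 34.5 CPM, beside 49.95 and 50.5 CPM. Erythroid markers summed to between 1129 and 2420 CPM over the 3 libraries, and their part in these values was not tested.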
